A study of Mus musculus with 34 samples.

Results

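The genes described here are 10 members of the Notch pathway: the receptors Notch1, Notch2, Notch3 and Notch4, the ligands Jag1, Jag2, Dll1 and Dll4, and the target genes Hes1 and Heyl. They were taken by their gene name in the scanner files of mouse single-colour Agilent arrays. All 10 were tested, among 19415 genes in all, and 52 further genes of the pathway (of 54 listed) are summarised beside them. Every cell came from CD1 mice of the aMHC-GFP genotype, a reporter under a cardiomyocyte promoter, and no sorting step on it appears among the labels. The study compared cardiomyocytes made by direct reprogramming with cardiomyocytes made through induced pluripotent stem cells (iPSC). Each of its 17 groups had 2 arrays, 34 arrays in all.

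Induced cardiomyocytes (iCM) were taken 4 weeks after cardiac fibroblasts received a retrovirus carrying Mef2c, Gata4 and Tbx5 on 1 transcript. A set of earlier cultures with the same virus (MGT) was taken on days 3, 5, 7, 10 and 14, beside cultures given LacZ virus on the same days. Cardiomyocytes from iPSC lines (made from cardiac fibroblasts with Oct4, Sox2, Klf4 and cMyc) came from a line sampled on day 13 (iPSC1-CM D13) and from another sampled on days 9 and 29 (iPSC2-CM D9 and D29). The average of iPSC1-CM D13 and iPSC2-CM D9 is called iPSC-CM. The primary groups were cardiomyocytes (neoCM) and fibroblasts (neoCF) freshly isolated at postnatal day 1.5, and the fibroblasts at the start of reprogramming (CF D0). Contractile iCM and iPSC-derived cells grew in a medium with added VEGF, bFGF and FGF10, which is not recorded for the other groups. Each iPSC line is a single line, so a difference between the lines has no replication over lines.

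Notch signalling passes between touching cells. A Jagged or Delta-like ligand on 1 cell binds a Notch receptor on its neighbour, proteases release the intracellular part of the receptor, and this part joins RBPJ in the nucleus to switch on genes of the HES and HEY families. In the heart the pathway is known for its roles in endocardium and valve formation, in arterial endothelium and in vascular smooth muscle. Notch3 is the receptor typical of smooth muscle and pericytes, and Notch4 and Dll4 are typical of endothelium.

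The upstream sequences of the receptors and ligands called in the comparison of MGT with LacZ are shown first, because Notch3, Notch4 and Jag1 moved together there and Jag2 moved the other way. RefSeq windows (build GRCm38.p6) were found for 8 of the 10 members. The 250 bases before the start of the gene are printed from 5′ to 3′ on the strand of the gene, Notch3 at chr17:32166891-32167140 (minus strand), Notch4 at chr17:34564045-34564294 (plus strand), Jag1 at chr2:137116521-137116770 (minus strand), Jag2 at chr12:112929496-112929745 (minus strand). Capitals mark matches to a GC box (GGGCGG or its reverse complement), and the adjoining matches of Jag2 overlap.
Notch3: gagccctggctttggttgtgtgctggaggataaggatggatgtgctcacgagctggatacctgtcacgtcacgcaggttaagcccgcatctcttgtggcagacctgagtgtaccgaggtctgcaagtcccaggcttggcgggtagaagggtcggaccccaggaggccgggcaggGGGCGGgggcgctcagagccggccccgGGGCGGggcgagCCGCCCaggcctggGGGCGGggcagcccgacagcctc
Notch4: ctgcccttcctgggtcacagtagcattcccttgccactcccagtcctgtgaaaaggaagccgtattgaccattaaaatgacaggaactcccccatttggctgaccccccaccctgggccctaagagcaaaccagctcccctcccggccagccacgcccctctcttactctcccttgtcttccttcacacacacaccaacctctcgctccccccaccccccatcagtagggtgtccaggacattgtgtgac
Jag1: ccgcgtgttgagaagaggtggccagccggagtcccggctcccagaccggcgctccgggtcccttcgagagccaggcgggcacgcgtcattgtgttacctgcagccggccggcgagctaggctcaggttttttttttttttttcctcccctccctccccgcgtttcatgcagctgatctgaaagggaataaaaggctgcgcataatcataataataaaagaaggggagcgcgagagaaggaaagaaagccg
Jag2: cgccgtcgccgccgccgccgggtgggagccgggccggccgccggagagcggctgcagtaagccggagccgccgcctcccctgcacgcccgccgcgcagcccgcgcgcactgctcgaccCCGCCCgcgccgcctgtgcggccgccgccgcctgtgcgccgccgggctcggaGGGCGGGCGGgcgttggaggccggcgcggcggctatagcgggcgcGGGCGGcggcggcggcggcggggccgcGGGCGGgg
Notch3 holds 4 GC box matches, Jag2 holds 5, and Notch4 and Jag1 hold 0. A GC box lies in 32.7% of all 32851 windows of this length. The core of the RBPJ site (TGGGAA, in 21.6% of all windows), the GATA motif AGATAA (9.99%), the T-box motif AGGTGT (11.8%), the AP-1 motif TGACTCA (4.46%), the HES and HEY motif CACGTG (6.02%) and the TATA box TATAAA (12.4%) were searched on both strands. None of these letters occurs in the 9 windows of the members. The CCAAT box (CCAAT, in 33.8% of all windows) occurs in Dll1 and Dll4.

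A level here is the log2 of the spot intensity minus the log2 of the 75th percentile of its array, so that 0 is the brightness of that percentile. Levels of different genes come from different probes and are not compared with each other. A gene was called where limma gave an adjusted p under 0.05 and the change was at least 2-fold, and ± after a change is its standard error on the log2 scale. The labels do not say whether the 2 arrays of a group were separate cultures, so p-values measure the spread between these samples only. Spots well above background numbered 28715 to 44881 an array. Replicates correlated at 0.984 to 0.997 across genes in 16 groups and at 0.895 in iPSC2-CM D29, where 5 of the 10 members differed at least 2-fold between the arrays. Every comparison below that rests on that group is open to this gap, and because all groups share 1 estimate of the spread, its arrays also widen the errors of the others. LacZ D14 had the next lowest correlation (0.984), with 2493 genes and 2 members at least 2-fold apart. Its replicate 2 held the fewest spots well above background (28715) and the lowest 75th percentile of intensity (729), which limits comparisons with LacZ D14. Notch1, Notch2, Notch3, Notch4, Jag1 and Hes1 were well above background on 34 of 34 arrays, Heyl on 33, Jag2 on 27, Dll1 on 17 and Dll4 on 14.

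The labelled cell types were set against marker lists. All 8 cardiomyocyte markers were well above background in neoCM, in iCM, in the iPSC-derived cells and in MGT cultures of every day, but also in neoCF and LacZ D3, and 7 of 8 were in CF D0. The median level of the list was 7.75 and 7.89 in neoCM, against 2.74 and 1.94 in neoCF. The neoCF arrays also carried all 11 endothelial and endocardial markers (median levels 2.57 and 3.23) and all 9 smooth muscle and pericyte markers (1.83 and 1.83). On the neoCM arrays the smooth muscle and pericyte list stood higher, at median levels of 4.23 and 4.01. The median level of the fibroblast list was 3.30 and 3.17 in neoCM, against 5.34 and 5.73 in neoCF. The log2 of its summed level was 9.38 and 9.32 in neoCM, against 9.55 and 9.57 in neoCF. In bulk samples of this kind, fewer cells of a type and less RNA per cell cannot be told apart.

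**Figure D1:**
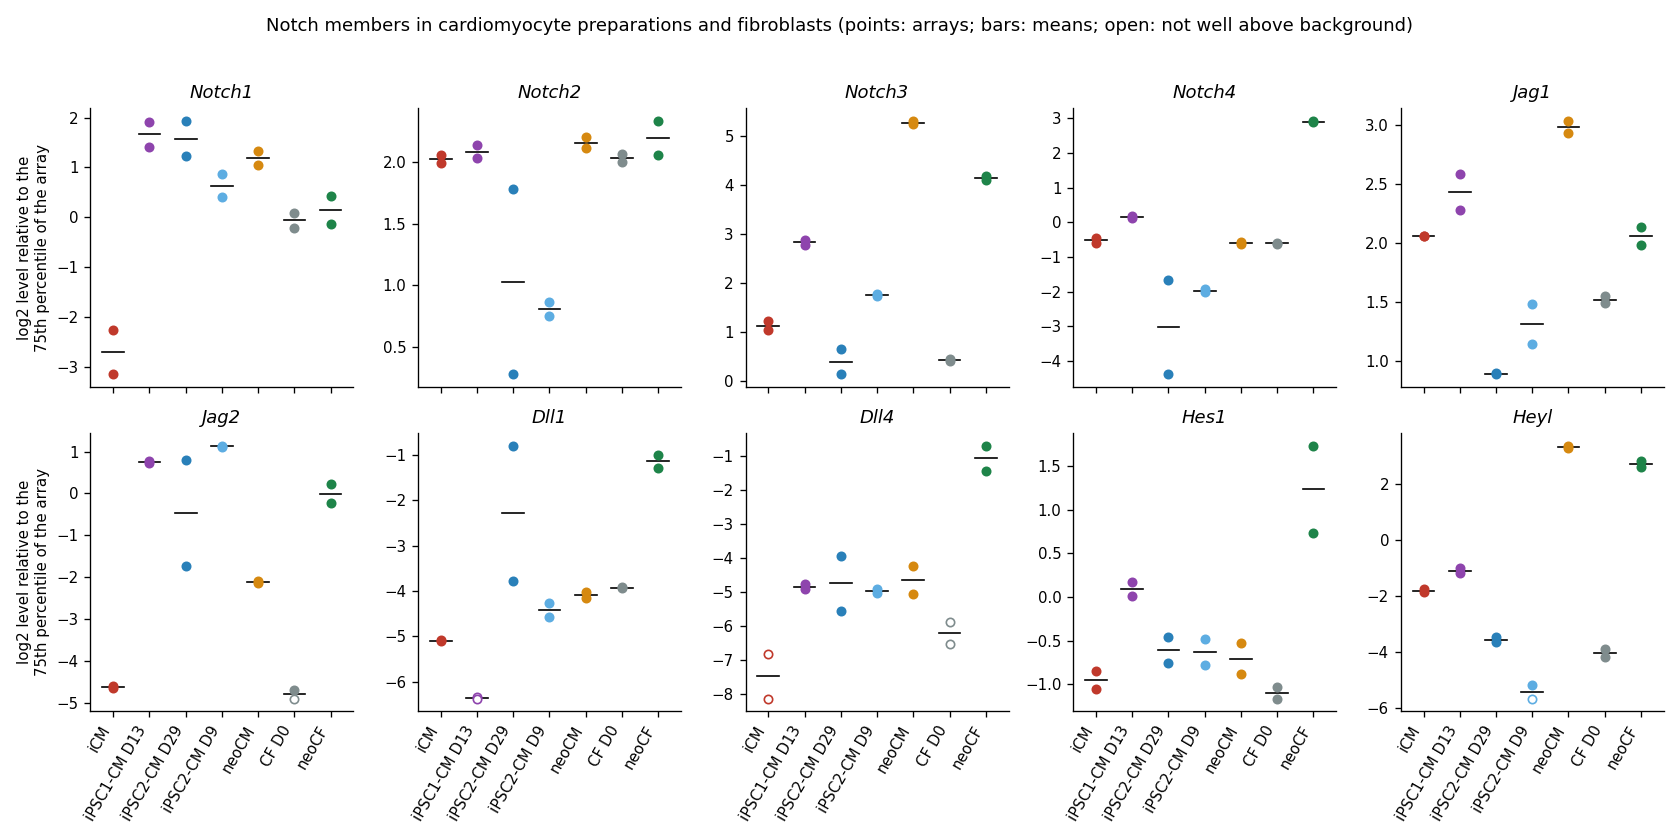
Level of each member on every array of the cardiomyocyte preparations, of the fibroblasts at the start of reprogramming and of fresh fibroblasts (y axis, log2 relative to the 75th percentile of the array; bars are means of 2 arrays; open points are not well above background). The 2 neoCF arrays stand above all others for Notch4 and Dll4, and the 2 neoCM arrays stand highest for Notch3, Jag1 and Heyl.

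Against fresh fibroblasts, iCM, iPSC-CM and neoCM each had more members called lower than higher. Of the 10 members, 8 were called in iCM, all lower (37% of all genes were called in this comparison, 20.1% as lower). All of these but Notch1 were also called lower in CF D0 against neoCF, described below. In iPSC-CM 7 were called, 1 higher and 6 lower (37.2% of all genes, 18.6% as higher and 18.5% as lower). In neoCM 7 were called, 2 higher and 5 lower (31.6% of all genes, 15.5% as higher and 16.1% as lower). The median change of the members was -3.21 in iCM, -1.67 in iPSC-CM and -0.99 in neoCM, beside medians over all genes of 0.01, 0.21 and -0.04. These comparisons share the neoCF arrays, and in each of them the groups were hybridised on separate slides, so that a slide effect and a group effect cannot be told apart.

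Among the receptors, Notch3 separated the routes from primary cardiomyocytes. The arrays read 1.04 and 1.23 for iCM, 2.79 and 2.88 in iPSC1-CM D13, 1.74 and 1.78 in iPSC2-CM D9, 5.30 and 5.23 in neoCM, and 4.10 and 4.17 in neoCF. No arrays of these groups overlapped, with neoCM above neoCF and the reprogrammed cells below it. Notch3 fell by 3.00 in iCM (SE 0.14, adjusted p = 2.3e-12) and by 1.84 in iPSC-CM (SE 0.12, adjusted p = 1.7e-10) against neoCF. It rose by 1.13 in neoCM (SE 0.14, adjusted p = 1.7e-06), a call that ended just under the 2-fold minimum (0.997) after quantile normalization. Against neoCF, smooth muscle and pericyte markers were higher at 5 of 9 and lower at 0 in neoCM (median change 2.65). They were higher at 2 and lower at 4 in iCM, and higher at 3 and lower at 5 in iPSC-CM. Their part in the Notch3 result was not tested.

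Notch4 was high in fresh fibroblast preparations alone among these groups. The iCM arrays read -0.59 and -0.44, against 0.17 and 0.13 in iPSC1-CM D13, -1.92 and -2.01 in iPSC2-CM D9, -0.56 and -0.63 in neoCM, and 2.93 and 2.90 in neoCF. It fell by 3.42 in iCM, by 3.82 in iPSC-CM and by 3.51 in neoCM (SE 0.46, 0.39 and 0.46, adjusted p = 3.2e-06, 8.4e-08 and 2.8e-06). The endothelial list moved the same way, with 8 of 11 markers lower in iCM, 10 of 11 in iPSC-CM and 10 of 11 in neoCM. The log2 of its summed level was 4.18 and 4.21 in iCM, 4.80 to 5.43 in the iPSC-CM arrays, 4.64 and 4.78 in neoCM, and 7.56 and 7.65 in neoCF. Macrophage markers were lower at 1 of 8 and higher at 1 of 8 in iCM, and lower at 8 of 8 in iPSC-CM and at 8 of 8 in neoCM. The part of these cells in the result was not tested.

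Notch1, a broadly used receptor, was lowest in iCM, at -2.27 and -3.14, against 0.43 and -0.14 in neoCF. That is a fall of 2.85 (SE 0.35, adjusted p = 1.1e-06). It was called higher in neoCM (1.04 ± 0.35, adjusted p = 0.017) and in iPSC-CM (1.00 ± 0.30, adjusted p = 0.0071), and both calls ended without neoCF replicate 2 (0.76 and 0.72, adjusted p = 0.16 and 0.13). The iPSC-CM call also ended just under the 2-fold minimum after quantile normalization (0.991) and with the authors' log2 values (0.993). It did so with normexp and quantile normalization too (0.996). The main probe lies at chr2:26319440-26319499 and a dimmer one at chr2:26314630-26314689 (build mm9, minus strand). The dimmer probe was well above background on 11 of 34 arrays, among them both neoCM and both neoCF arrays, where it gave -1.27 (adjusted p = 0.20), the opposite direction and no call. On the iPSC1-CM D13 arrays, both well above background, it read -5.89 and -6.02, against -3.55 and -3.28 in neoCF, also the opposite direction. It was not well above background on any iCM or iPSC2-CM D9 array and gives no exact change there.

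Notch2 varied least, with group means spanning 1.39 log2 units over the 17 groups and 14 of 16 neighbouring groups in that order overlapping. It was 2.06 and 1.99 in iCM, against 2.06 and 2.34 in neoCF, and no call was made in iCM, iPSC-CM or neoCM. Its dimmer probe, with r = -0.19 to the main one over the 17 group means, gave -1.03 ± 0.31 in iCM (adjusted p = 0.0080).

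The ligands differed from each other. Jag1, a ligand used in vascular smooth muscle and endocardium, was at 2.07 and 2.06 in iCM, 2.28 and 2.59 in iPSC1-CM D13, 1.49 and 1.15 in iPSC2-CM D9, 3.04 and 2.94 in neoCM, and 1.99 and 2.14 in neoCF. iCM and neoCF overlapped (change -0.00 ± 0.12, adjusted p = 0.99). neoCM lay 0.92 ± 0.12 higher than neoCF (adjusted p = 2.1e-06), under the 2-fold minimum.

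Jag2 split the routes. It read -4.61 and -4.65 on the iCM arrays, 0.73 and 0.77 in iPSC1-CM D13, 1.11 and 1.14 in iPSC2-CM D9, -2.08 and -2.14 in neoCM, and -0.24 and 0.22 in neoCF. Among these groups the iPSC1-CM D13 and iPSC2-CM D9 arrays stood highest and the iCM arrays lowest, without overlap. The iPSC2-CM D29 arrays, at -1.74 and 0.80, lay on both sides of the neoCF arrays. It fell by 4.62 in iCM (SE 0.48, adjusted p = 1.3e-07) and by 2.10 in neoCM (SE 0.48, adjusted p = 0.0011), while iPSC-CM stood 0.95 ± 0.41 above neoCF without a call (adjusted p = 0.053).

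Dll4 and Dll1, the Delta-like ligands, had their highest group means in neoCF. For Dll1 the iPSC2-CM D29 arrays, at -0.80 and -3.78, lay on both sides of the neoCF arrays. Dll4 measured -6.80 and -8.13 in iCM, where it was not well above background, and -1.43 and -0.70 in neoCF. It was at least 39.8-fold lower in iCM (adjusted p = 8.3e-07), and fell by 3.83 in iPSC-CM (SE 0.66, adjusted p = 5.2e-05) and by 3.58 in neoCM (SE 0.77, adjusted p = 6.4e-04). Dll1 measured -5.10 and -5.09 in iCM, -6.34 and -6.37 in iPSC1-CM D13 (not well above background), -4.58 and -4.26 in iPSC2-CM D9, -4.16 and -4.02 in neoCM, and -1.01 and -1.28 in neoCF. It fell by 3.95 in iCM, by 4.24 in iPSC-CM and by 2.95 in neoCM (SE 0.51, 0.44 and 0.51, adjusted p = 2.2e-06, 9.2e-08 and 7.5e-05).

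The 2 target genes parted in primary cardiomyocytes. Hes1, a repressor of the HES family, read -0.85 and -1.05 on the iCM arrays, 0.17 and 0.01 in iPSC1-CM D13, -0.48 and -0.78 in iPSC2-CM D9, -0.88 and -0.53 in neoCM, and 0.73 and 1.73 in neoCF. All cardiomyocyte arrays lay below both neoCF arrays, and it fell by 2.18 in iCM, by 1.5 in iPSC-CM and by 1.94 in neoCM (SE 0.23, 0.20 and 0.23, adjusted p = 1.9e-07, 2.7e-06 and 1.1e-06). Heyl, a HEY family repressor known as a Notch target in vascular smooth muscle, read -1.86 and -1.74 on the iCM arrays, -1.18 and -0.98 in iPSC1-CM D13, -5.66 and -5.16 in iPSC2-CM D9, 3.37 and 3.27 in neoCM, and 2.62 and 2.83 in neoCF. It fell by 4.52 in iCM (SE 0.17, adjusted p = 8.2e-14) and by 5.97 in iPSC-CM (SE 0.14, adjusted p = 1.4e-16). neoCM lay 0.60 ± 0.17 above neoCF (adjusted p = 0.0055), short of 2-fold.

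Of the 52 other pathway genes tested, 5 were called higher and 12 lower in iCM, 6 and 15 in iPSC-CM, and 6 and 13 in neoCM. Their median changes of -0.26, -0.20 and -0.37 were nearer to those of all genes than the medians of the members were. In iCM the largest rises were of Lnx1, a ubiquitin ligase for Numb (2.90 ± 0.51), and Poglut1, which adds glucose to the receptors (1.68 ± 0.24). Nrarp, a Notch target that feeds back on the pathway, was at least 113-fold lower and Hes5, another target, at least 30.3-fold lower. In iPSC-CM Lnx1 (2.77 ± 0.44) and Hes6 (1.41 ± 0.11) rose most, and Mfap5, a matrix protein that binds Jagged ligands, fell by 8.18 and the fringe glycosyltransferase Lfng fell by 5.31 (well above background on 1 of 4 iPSC-CM arrays). In neoCM Dlk2 (2.49 ± 0.38) and Hey2, a repressor of ventricular muscle and arteries (2.09 ± 0.34), rose most, Hes5 was at least 22.7-fold lower and the fringe enzyme Mfng fell by 3.99.

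**Figure D2:**
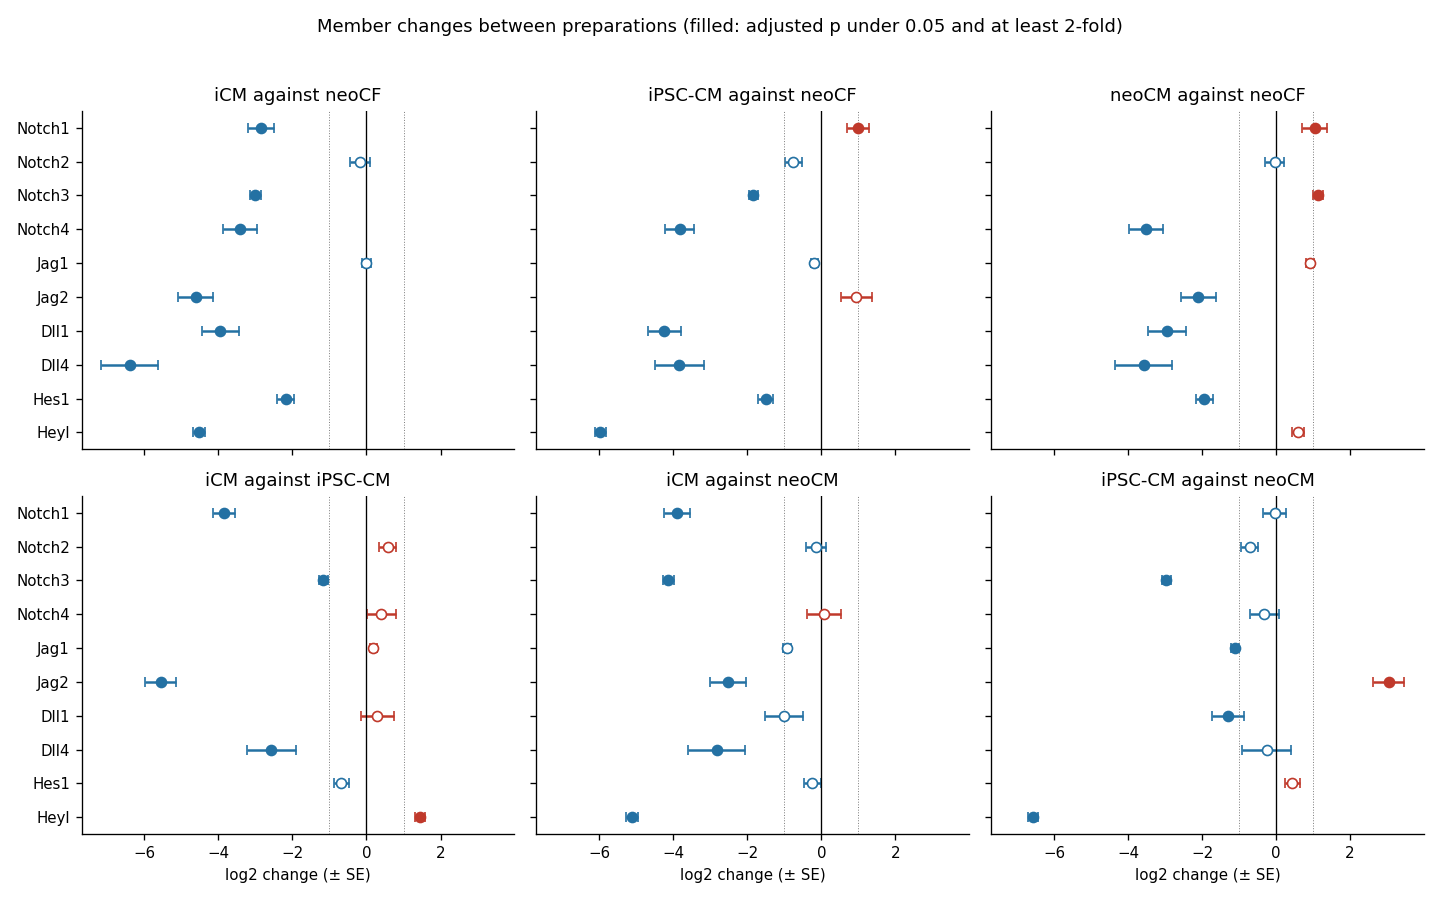
Log2 change of each member (x axis, ± SE) in the comparisons among iCM, iPSC-CM (mean of iPSC1-CM D13 and iPSC2-CM D9), neoCM and neoCF. Filled points are called, and dotted lines mark 2-fold. Of 10 members, 8 are filled for iCM against neoCF, all to the left of 0.

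Set against neoCM, the iCM were lower in Notch3, Heyl, Notch1, Jag2 and Dll4. These were the 5 members called, all lower (38.8% of all genes were called, 18% as higher and 20.9% as lower), with a member median of -1.76 beside -0.06 for all genes. Heyl fell by 5.12 (SE 0.17, adjusted p = 1.2e-14), Notch3 by 4.13 (SE 0.14, adjusted p = 2.0e-14) and Notch1 by 3.89 (SE 0.35, adjusted p = 1.4e-08). On slide 2, which held the iCM arrays and neoCM replicate 2, the changes were -5.07 for Heyl, -4.10 for Notch3 and -4.03 for Notch1. Jag2 fell by 2.52 (SE 0.48, adjusted p = 1.6e-04), and Dll4 was at least 3.33-fold lower (adjusted p = 0.0037), a call that ended after quantile normalization (adjusted p = 0.12). Jag1 lay 0.92 below neoCM (SE 0.12, adjusted p = 1.4e-06), and this became a call after quantile normalization (-1.19). Smooth muscle and pericyte markers were lower too, 7 of 9, with the log2 of their summed level at 8.24 and 8.04 in iCM and 9.49 and 9.47 in neoCM. Macrophage markers were higher at 7 of 8 (median change 5.29). Endothelial and endocardial markers were lower at 7 of 11 and higher at 2 (median change -2.08), while Notch4 was not called (0.08 ± 0.46, adjusted p = 0.89). The part of these cell types in the member changes was not tested. Nrarp was at least 149-fold lower and Hey2 fell by 4.77, among 12 other pathway genes lower and 11 higher, of which Dtx4 (3.26 ± 0.77) and Dtx3l (2.07 ± 0.46), ligases of the Deltex family, rose most.

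The iPSC-CM and neoCM arrays, like those of iCM and iPSC-CM, shared no slide, and the 2 effects cannot be told apart there either. The iPSC-CM against neoCM also had 5 members called, 1 higher and 4 lower (37.9% of all genes, 19.5% as higher and 18.4% as lower). Heyl fell by 6.56 (SE 0.14, adjusted p = 2.6e-17), Notch3 by 2.97 (SE 0.12, adjusted p = 1.9e-13), Jag1 by 1.11 (SE 0.10, adjusted p = 1.6e-08) and Dll1 by 1.29 (SE 0.44, adjusted p = 0.016). The Dll1 call ended with the authors' own log2 values (-0.91, adjusted p = 0.083). Jag2 rose by 3.05 ± 0.41 (adjusted p = 3.1e-06). Fibroblast markers were lower at 7 of 8 (median change -3.11), macrophage markers at 6 of 8 (-3.07) and smooth muscle and pericyte markers at 6 of 9 (-2.92), and their part was not tested. Other pathway genes were called higher at 9 and lower at 11. Dlk1, an imprinted ligand-like protein, rose by 2.99 ± 0.52 and Numbl, a Numb relative, by 2.37 ± 0.12, while Mfap5 fell by 4.97 and Nrarp by 3.75.

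Between the routes themselves, iCM against iPSC-CM, 5 members were called, 1 higher and 4 lower (46.8% of all genes, 20.6% as higher and 26.2% as lower). Jag2 fell by 5.56 (SE 0.41, adjusted p = 5.3e-10), Notch1 by 3.85 (SE 0.30, adjusted p = 1.0e-09) and Notch3 by 1.16 (SE 0.12, adjusted p = 6.5e-08). Dll4 was at least 2.79-fold lower (adjusted p = 0.0020), a call lost with the authors' log2 values (-0.81, adjusted p = 0.068). Heyl rose by 1.45 ± 0.14 (adjusted p = 3.3e-08), but the iCM arrays, at -1.86 and -1.74, lay between those of iPSC1-CM D13 (-1.18 and -0.98) and iPSC2-CM D9 (-5.66 and -5.16). The rise thus holds against iPSC2-CM D9 and not against iPSC1-CM D13. Notch2, Notch4, Jag1, Dll1 and Hes1 had no call. In the same comparison 8 of 8 macrophage markers (median change 7.24), 6 of 8 fibroblast markers (4.65) and 4 of 5 epicardial markers (6.33) were higher in iCM, and their part was not tested. Among other pathway genes, 9 rose and 12 fell, with Mfap5 (5.54 ± 0.20) and Dtx4 (4.70 ± 0.67) at the top. Dlk1 fell by 5.56 and Nrarp was at least 11.1-fold lower.

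The iPSC lines differed in 7 members, iPSC1-CM D13 against iPSC2-CM D9, of which 6 were higher and 1 lower (21.4% of all genes, 11.9% as higher and 9.44% as lower). Line and day of culture cannot be told apart here, and both groups lay on the same slide. Heyl rose by 4.32 ± 0.17 (adjusted p = 2.2e-13), Notch4 by 2.12 ± 0.46 (adjusted p = 0.0010), Notch2 by 1.28 ± 0.27 (adjusted p = 7.8e-04), Jag1 by 1.12 ± 0.12 (adjusted p = 3.0e-07), Notch3 by 1.07 ± 0.14 (adjusted p = 5.1e-06) and Notch1 by 1.03 ± 0.35 (adjusted p = 0.023). Notch2 was not called with its dimmer probe (-0.27). Dll1 was at least 3.49-fold lower (adjusted p = 0.0050), a call that ended with the authors' log2 values (-0.99, adjusted p = 0.14). Without iPSC1-CM D13 replicate 2 or iPSC2-CM D9 replicate 2, Jag1 (0.97 and 0.95) lay under 2-fold and Notch1 was not called (adjusted p = 0.19 and 0.18). Of 9 smooth muscle and pericyte markers, 3 were higher and 2 lower. Their median level was 3.30 and 3.31 on the iPSC1-CM D13 arrays and -0.74 and -0.74 on those of iPSC2-CM D9, while the log2 of their summed level ran the other way, at 8.82 and 8.69, against 9.28 and 9.75. Endothelial and endocardial markers were higher at 2 of 11 and lower at 4 (median change -1.15), while Notch4 rose. All 8 fibroblast markers were higher in iPSC1-CM D13 and 6 of 8 cardiomyocyte markers lower. Their part in the member changes was not tested. Other pathway genes rose at 10 and fell at 3, led by Mfap2, a microfibril protein (3.89 ± 0.80), and Nrarp (3.50 ± 0.53), with Mfng (fell by 2.83) and Numb, a Notch inhibitor (fell by 1.63), in the other direction.

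Long culture of the iPSC2 line rests on arrays that disagree. Comparing iPSC2-CM D29 with iPSC2-CM D9, 4 members were called, 2 higher and 2 lower (24.3% of all genes, 14.7% as higher and 9.57% as lower). Heyl was -3.64 and -3.47 in iPSC2-CM D29, against -5.66 and -5.16 in iPSC2-CM D9 (1.85 ± 0.17, adjusted p = 4.1e-08). Notch3 was 0.65 and 0.15 in iPSC2-CM D29, against 1.74 and 1.78 in iPSC2-CM D9 (-1.36 ± 0.14, adjusted p = 2.7e-07). For both genes the arrays of the 2 days did not overlap. Jag2 (-1.59 ± 0.48, adjusted p = 0.011) and Dll1 (2.13 ± 0.51, adjusted p = 0.0023) rested on arrays far apart, at -1.74 and 0.80 for Jag2 and at -0.80 and -3.78 for Dll1 in iPSC2-CM D29. Without iPSC2-CM D29 replicate 1 the changes were -0.32 for Jag2 and 0.64 for Dll1, neither called. Smooth muscle and pericyte markers were lower at 7 of 9 in iPSC2-CM D29 and higher at 1. Endothelial markers were lower at 6 of 11 and cardiomyocyte markers at 5 of 8, with 0 higher in each list. Fibroblast markers were higher at 4 of 8 and epicardial markers at 4 of 5, with 1 lower in each list. The median level of the fibroblast list was 4.14 on iPSC2-CM D29 replicate 1 and -2.28 on replicate 2. That of the endothelial list was -0.78 and -5.20. The part of these cell types was not tested. None of the 10 members was called with array weights or with only these groups in the fit. Of all 19415 genes, 490 were called with array weights and 0 with only these groups. Other pathway genes were called higher at 7 and lower at 9, with Hes5 at 3.62 and -4.47 on the iPSC2-CM D29 arrays.

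The time course set cells given the factors against cells given a control virus on the same day. On the mean of days 3 to 10, where MGT and LacZ arrays of a day shared a slide, 5 members were called, 1 higher and 4 lower (9.92% of all genes, 5.49% as higher and 4.42% as lower). Jag1, Notch4, Notch3 and Heyl were lower with MGT and Jag2 was higher. The member median was -0.63, beside -0.09 for all genes. On single days 0 members were called on day 3 (5.06% of all genes, 3.2% as higher and 1.86% as lower; limma, 3 members at an unadjusted p under 0.05). On day 5 they were 1 higher and 4 lower (8.27% of all genes, 4.93% as higher and 3.34% as lower), and on day 7 they were 1 higher and 3 lower (8.75%, 5.32% and 3.43%). On day 10 they were 1 higher and 3 lower (8.65%, 5.26% and 3.39%), and on day 14 they were 2 higher and 3 lower (13.2%, 5.85% and 7.36%). On day 14 the MGT and LacZ arrays came from separate slides, which cannot be told apart from the virus.

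**Figure D3:**
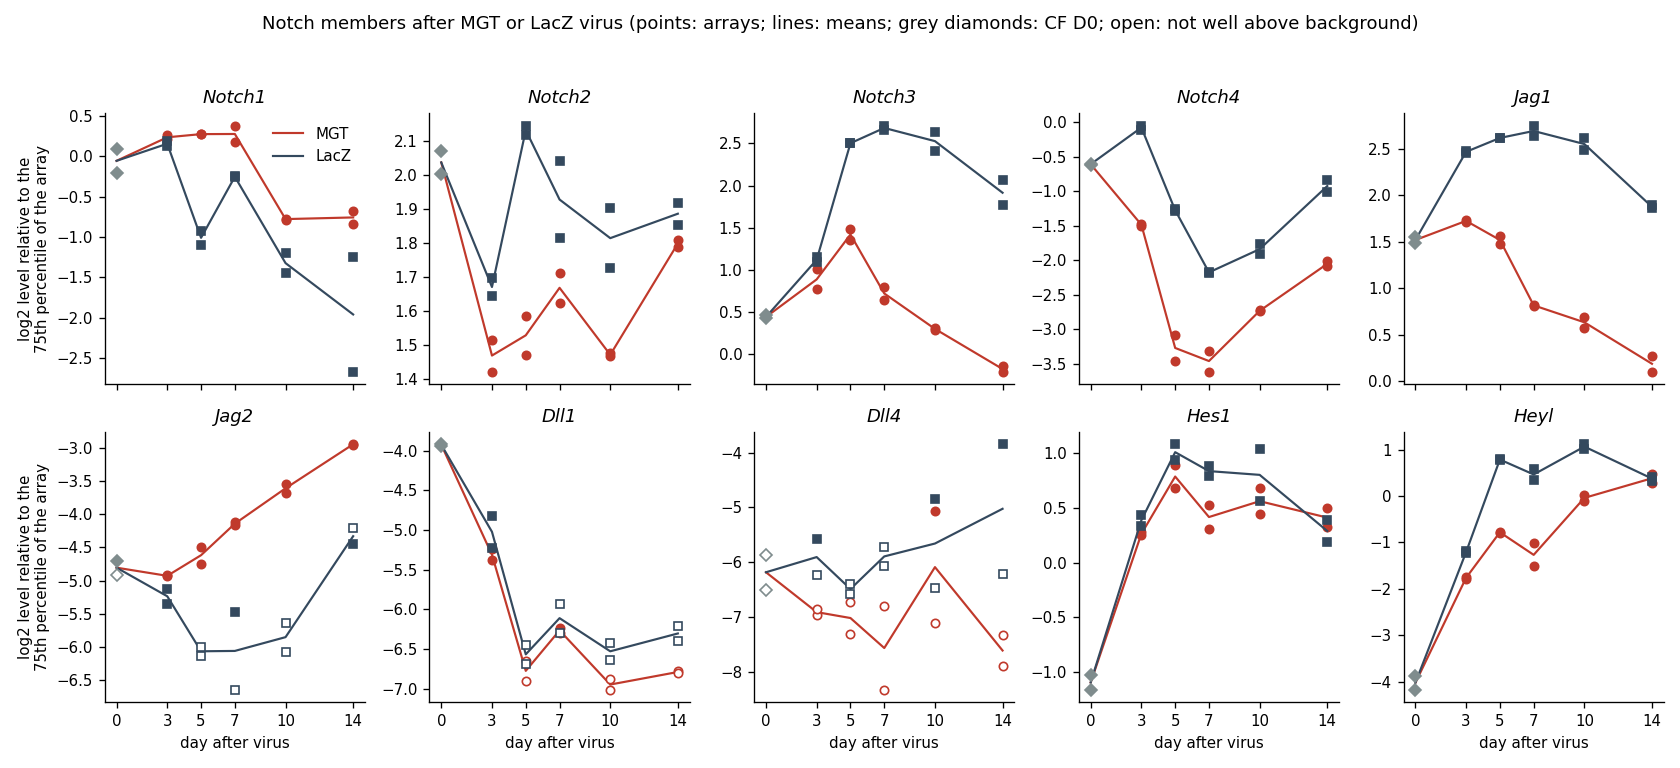
Level of each member by day after virus (x axis, days; y axis, log2 relative to the 75th percentile of the array), with MGT circles and LacZ squares for single arrays, lines through the means and CF D0 at day 0. Open points are not well above background. For Notch3 and Jag1 every LacZ array lies above every MGT array of the same day, with the widest gaps on day 10.

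Notch3 stood above CF D0 in LacZ cultures on every day. With the factors its arrays lay above those of CF D0 on days 3 to 7 and below them on days 10 and 14. Of both arms only LacZ D14 shared a slide with CF D0 and was tested against it. For the other groups slide and time since CF D0 cannot be told apart. Its MGT arrays measured 0.77 and 1.00 on day 3, 1.35 and 1.49 on day 5, 0.80 and 0.64 on day 7, 0.31 and 0.29 on day 10, and -0.15 and -0.21 on day 14. The LacZ arrays measured 1.15 and 1.09, 2.50 and 2.50, 2.71 and 2.65, 2.64 and 2.41, and 2.06 and 1.77 on the same days, and CF D0 measured 0.42 and 0.46. The groups did not overlap on any day. The change was -0.23 ± 0.14 on day 3 (adjusted p = 0.45), -1.08 ± 0.14 on day 5 (adjusted p = 1.3e-05), -1.96 ± 0.14 on day 7 (adjusted p = 3.5e-09), -2.23 ± 0.14 on day 10 (adjusted p = 5.4e-10) and -2.09 ± 0.14 on day 14 (adjusted p = 1.3e-09). The effect on day 10 was 1.99 below that on day 3 (SE 0.20, adjusted p = 6.1e-06), 1 of 2 members called in this test of the difference, both lower (1.97% of all genes, 0.592% as lower). Of 9 smooth muscle and pericyte markers, 2 were higher and 0 lower with MGT on the mean of days 3 to 10 (median change 0.14), 1 higher and 1 lower on day 10 (median change -0.04), and 1 higher and 2 lower on day 14 (median change -0.33). The median level of the list on day 10 was 2.33 and 2.19 with MGT and -0.00 and -0.16 with LacZ, and the log2 of its summed level was 9.16 and 9.10, against 9.36 and 9.01. Their part in the Notch3 result was not tested.

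Jag1 was the other member called in that test, with an effect on day 10 of 1.17 below that on day 3 (SE 0.17, adjusted p = 3.0e-04). With MGT it measured 1.72 and 1.73 on day 3, 1.48 and 1.56 on day 5, 0.82 and 0.81 on day 7, 0.57 and 0.70 on day 10, and 0.11 and 0.27 on day 14. With LacZ it measured 2.46 and 2.48, 2.62 and 2.61, 2.63 and 2.75, 2.62 and 2.49, and 1.89 and 1.86, and CF D0 measured 1.55 and 1.49. MGT arrays lay below the LacZ arrays on each day. The change was -0.74 ± 0.12 on day 3 (adjusted p = 2.1e-04, under 2-fold), -1.10 ± 0.12 on day 5 (adjusted p = 1.1e-06), -1.87 ± 0.12 on day 7 (adjusted p = 5.1e-10), -1.92 ± 0.12 on day 10 (adjusted p = 3.7e-10) and -1.69 ± 0.12 on day 14 (adjusted p = 2.1e-09).

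Heyl measured -4.18 and -3.87 in CF D0, below every array of both arms, of which only those of LacZ D14 shared its slide. Heyl was lower with MGT than with LacZ on days 5 to 10. On day 5 it measured -0.79 and -0.77 with MGT, against 0.77 and 0.81 with LacZ. On day 7 the values were -1.02 and -1.52 with MGT, against 0.35 and 0.58 with LacZ, and on day 10 they were 0.02 and -0.10 with MGT, against 1.13 and 1.01 with LacZ. The arms did not overlap on these days, and the change was -1.57 ± 0.17 (adjusted p = 1.1e-06), -1.73 ± 0.17 (adjusted p = 2.3e-07) and -1.11 ± 0.17 (adjusted p = 6.7e-05). On day 3 it was -0.55 ± 0.17 (adjusted p = 0.043), under 2-fold. On day 14 the arms overlapped, at 0.48 and 0.29 with MGT, against 0.42 and 0.34 with LacZ (0.01 ± 0.17, adjusted p = 0.98). Hes1, the other target, was not called on any day, with changes from -0.42 to 0.12.

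Notch4 was lower with MGT on every day, and its call depended on the estimate of the spread. It measured -1.47 and -1.5 with MGT on day 3, against -0.04 and -0.10 with LacZ, and -3.08 and -3.45 with MGT on day 5, against -1.29 and -1.26 with LacZ. On day 7 it measured -3.61 and -3.30 with MGT, against -2.18 and -2.17 with LacZ, on day 10 -2.74 and -2.72, against -1.77 and -1.91, and on day 14 -2.01 and -2.09, against -0.83 and -1.01. No day showed overlap. The change was called on the mean of days 3 to 10 (-1.40 ± 0.23, adjusted p = 6.3e-05) and on day 5 (-2.00 ± 0.46, adjusted p = 0.0044), and not on days 3, 7, 10 and 14 (adjusted p = 0.065, 0.068, 0.23 and 0.082). Without the iPSC2-CM D29 arrays it was also called on day 3 (adjusted p = 1.3e-08), day 7 (adjusted p = 2.0e-08) and day 14 (adjusted p = 1.2e-07). The day 5 call ended without MGT D5 replicate 2 (-1.81, adjusted p = 0.053).

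Endothelial and endocardial markers fell beside Notch4, at 7 of 11 on the mean of days 3 to 10. Their median level on day 10 was -3.43 and -3.66 with MGT, against -1.5 and -2.03 with LacZ, and the log2 of the summed level was 4.12 and 3.98, against 4.75 and 4.41. Tie1 and Sox17 were not well above background on either MGT D10 array. Over the 17 group means Notch4 correlated with the median of this list at r = 0.85, Dll4 at 0.68 and Dll1 at 0.65, values that share libraries and scaling. Their part in the Notch4 result was not tested.

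**Figure D4:**
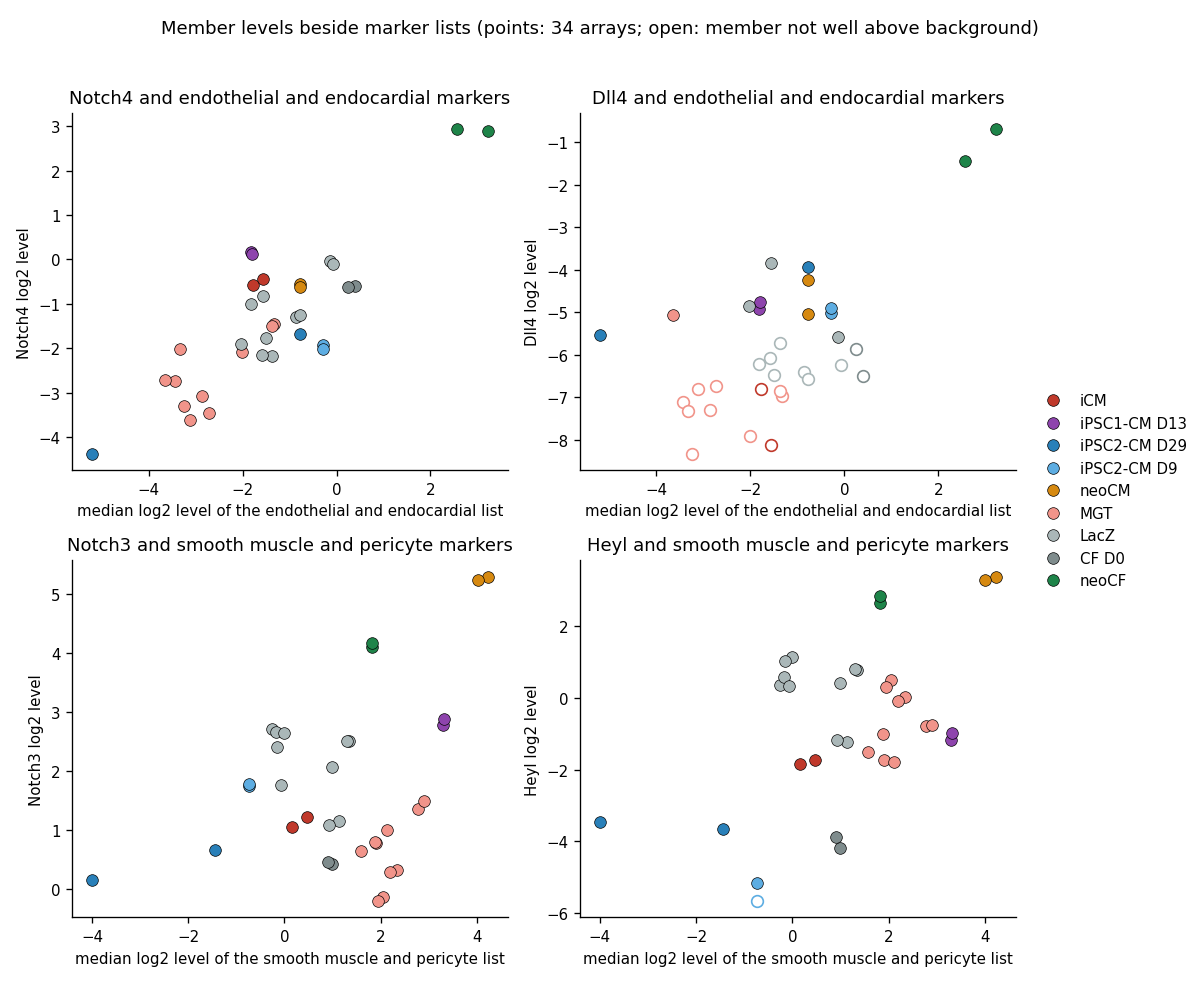
Level of Notch4 and Dll4 against the median level of 11 endothelial and endocardial markers, and of Notch3 and Heyl against that of 9 smooth muscle and pericyte markers, for the 34 arrays (log2; open points, member not well above background). The neoCF arrays stand at the upper right for Notch4 and Dll4, and the MGT arrays lie to the right of every LacZ array on the smooth muscle axis.

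Jag2 moved opposite to Jag1. With MGT it measured -4.94 and -4.92 on day 3, -4.75 and -4.49 on day 5, -4.16 and -4.13 on day 7, -3.68 and -3.55 on day 10, and -2.95 and -2.94 on day 14. With LacZ it measured -5.35 and -5.13, -6.00 and -6.13, -5.47 and -6.65, -6.07 and -5.63, and -4.45 and -4.22, and was well above background on 4 of these 10 arrays. MGT arrays lay above LacZ arrays of the same day throughout. The change was 1.48 ± 0.24 on the mean of days 3 to 10 (adjusted p = 5.9e-05), 1.92 ± 0.48 on day 7 (adjusted p = 0.0085) and 1.38 ± 0.48 on day 14 (adjusted p = 0.042). On day 10, with neither LacZ array well above background, the measured fold was 4.73 higher with MGT (adjusted p = 0.0024). The at-least fold equalled it there and sets no lower bound. The call on the mean ended with the authors' log2 values (0.96, adjusted p = 0.0049) and after normexp correction with quantile normalization (0.60, adjusted p = 0.043), each under 2-fold. The calls on days 7 and 14 also ended with the authors' log2 values (adjusted p = 0.11 and 0.071), and the call on day 10 with normexp and quantile normalization (1.00, adjusted p = 0.16). Without any 1 of its 4 arrays the day 14 change was not called (adjusted p = 0.11 to 0.15), and without LacZ D7 replicate 2 the day 7 change was 1.33 (adjusted p = 0.18).

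Notch1 was called higher with MGT on day 5 (1.28 ± 0.35, adjusted p = 0.015) and day 14 (1.20 ± 0.35, adjusted p = 0.016) and not on the mean (0.61 ± 0.17). The dimmer probe was well above background on 0 of 10 MGT arrays and on 3 of 10 LacZ arrays, and gives no exact change here. Both calls ended without single arrays, that of day 14 without LacZ D14 replicate 1 at 0.49 (adjusted p = 0.31). Notch2 was 0.35 lower on the mean (SE 0.13, adjusted p = 0.046), under 2-fold. Dll1 was well above background on 3 of the 10 MGT and on 2 of the 10 LacZ arrays, and was not called on any day. Dll4 was called on day 14, at least 3.46-fold lower with MGT (adjusted p = 0.018). That rests on LacZ arrays of -3.84 and -6.21, of which 1 was well above background, and the call ended after quantile normalization (adjusted p = 0.36).

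Of the other pathway genes, 2 were higher and 5 lower on the mean of days 3 to 10. Lnx1 (2.42 ± 0.26) and Maml3, a coactivator of the nuclear complex (1.91 ± 0.15), were higher and were called on each of the 5 days. Lnx1 measured 1.06 and 0.91 with MGT on day 10, against -2.35 and -2.39 with LacZ. Dlk1 fell by 2.61 (SE 0.30) and Hey2 by 1.45 (SE 0.17; well above background on 4 of 8 MGT arrays) on the mean. Dlk1 was -3.39 and -3.44 with MGT on day 10, against 1.90 and 1.66 with LacZ, and its effect on day 10 was 4.83 below that on day 3 (SE 0.85). In that test Mfap5 (-2.66 ± 0.33) and Hey1 (-1.05 ± 0.25) were also called and 0 genes of the list were higher.

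The members also differed between fibroblast samples that had received no virus. The CF D0 fibroblasts against neoCF had 7 members called, all lower (34.4% of all genes, 18.2% as lower), on the same slide. Heyl fell by 6.75 (SE 0.17, adjusted p = 6.2e-16), at -4.18 and -3.87 in CF D0, against 2.62 and 2.83 in neoCF. Jag2 fell by 4.80 (SE 0.48, adjusted p = 7.2e-08), Notch3 by 3.69 (SE 0.14, adjusted p = 1.1e-13), Notch4 by 3.52 (SE 0.46, adjusted p = 2.2e-06), Dll1 by 2.78 (SE 0.51, adjusted p = 1.2e-04) and Hes1 by 2.33 (SE 0.23, adjusted p = 7.6e-08), and Dll4 was at least 23.1-fold lower (adjusted p = 1.3e-05). Cardiomyocyte markers were lower at 8 of 8, endothelial markers at 7 of 11 and epicardial markers at 5 of 5, with 0 higher in each list. Macrophage markers were lower at 6 of 8 and higher at 2. Smooth muscle and pericyte markers were higher at 3 of 9 and lower at 4 (median change -0.54). The log2 of their summed level was 8.88 and 8.99 in CF D0, against 6.95 and 7.16 in neoCF. The part of these cell types was not tested. Notch1, Notch2 and Jag1 had no call. All 7 members called here were also called lower in iCM against neoCF, where Notch1 was the only other call. The iCM arrays lay above the CF D0 arrays for Heyl (-1.86 and -1.74) and for Notch3 (1.04 and 1.23, against 0.42 and 0.46). These groups were on separate slides, and iCM against CF D0 was not tested. Other pathway genes fell at 15 and rose at 2. Dtx1, a Deltex ligase and Notch target, was at least 22.9-fold lower, Nrarp fell by 5.62, and Dtx3l (2.61 ± 0.46) and Neurl1b (1.5 ± 0.36), which act on ligand and receptor turnover, rose.

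After 14 days with LacZ, 5 members differed from CF D0, 3 higher and 2 lower (27.6% of all genes, 15.7% as higher and 11.9% as lower). Heyl rose by 4.41 ± 0.17 (adjusted p = 2.0e-13), Notch3 by 1.47 ± 0.14 (adjusted p = 5.7e-08) and Hes1 by 1.39 ± 0.23 (adjusted p = 6.5e-05). Hes1 was 0.39 and 0.19 in LacZ D14, against -1.03 and -1.17 in CF D0, without overlap. Notch1 fell by 1.90 (SE 0.35, adjusted p = 1.5e-04), a call that ended with only these groups in the fit (adjusted p = 0.070), and Dll1 was at least 1.73-fold lower (adjusted p = 7.0e-04). That bound for Dll1 lies under 2-fold, and its call ended with normexp and quantile normalization (-0.86, adjusted p = 0.097). Macrophage markers were higher at 7 of 8 and lower at 0. Endothelial markers were lower at 7 of 11 and higher at 2, and cardiomyocyte markers lower at 6 of 8 and higher at 1. Smooth muscle and pericyte markers were higher at 4 of 9 and lower at 1, and epicardial markers higher at 4 of 5 and lower at 1. The part of these cell types was not tested. Dner, a ligand-like membrane protein (4.78 ± 0.92, above background on 1 of 2 CF D0 arrays), and Lfng (1.99 ± 0.46) rose most among 6 other pathway genes higher, and Dlk1 fell by 3.61 among 4 lower, Nrarp being dim on both sides.

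Over all 17 groups, Heyl spanned 8.73 log2 units between neoCM (3.32) and iPSC2-CM D9 (-5.41, well above background on 1 of 2 arrays), with 5 of 16 neighbouring groups overlapping. Notch4 spanned 6.37, Notch3 5.44, Notch1 4.37, Jag1 2.80 and Hes1 2.33 units. Jag2, Dll1 and Dll4 were highest in iPSC2-CM D9, neoCF and neoCF, and their lowest groups were not well above background, so no exact span is given for them. In the order of Notch3 levels, LacZ D10 and LacZ D5 overlapped, LacZ D14 overlapped iPSC2-CM D9, and iCM overlapped LacZ D3. In the order of Notch4, iCM, neoCM and CF D0 overlapped in a row below LacZ D3. For Hes1, 13 of 16 neighbouring pairs overlapped, so most of its order lies within the spread between arrays.

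The members did not share 1 pattern. Over the group means Notch3 correlated most with Jag1 (r = 0.77), Notch4 with Dll4 (0.68), Dll1 with Dll4 (0.71) and Notch1 with Jag2 (0.60), while Hes1 and Heyl correlated at 0.575. Among 18619 other genes whose group means spanned at least 1 log2 unit, those most like each member in Pearson r over the 17 means were Egflam (0.93) and Arhgap33 (0.91) for Notch3, Ccm2l (0.87) and Eva1a (0.86) for Notch4, Cmya5 (0.98) and Ccdc172 (0.98) for Notch1, and P3h3 (0.92) and Pdzd4 (0.90) for Notch2. For the ligands they were Sfrp1 (0.88) and Robo1 (0.81) for Jag1, Zc3hav1l (0.96) and Dach1 (0.95) for Jag2, Kcnk5 (0.95) and Aqp8 (0.92) for Dll1, and Fgd5 (0.93) and Sigirr (0.91) for Dll4. For the targets they were Dnm1 (0.86) and Rab36 (0.85) for Hes1, and Fmod (0.87) and Map2 (0.85) for Heyl. The values of Notch1 and Notch2 are those of the main probe, which correlated with the dimmer probe at r = 0.23 and -0.19 over the same means. These are descriptions over groups that share arrays, slides and scaling.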

How the data were processed

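Per the file headers, the spot intensity of the deposited scanner files was background-adjusted in Feature Extraction (version 10.7.3.1, Agilent). A processed table came from the authors as log2 values (column medians 7.49 to 7.52), for which the submitters' processing notes name limma without a version. Probe positions are on build mm9, per the scanner files. Flags for spots above background and outlier spots are those deposited in the same files.

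Outlier spots (119 to 321 an array) were left out, spots of a probe averaged, and the array's 75th percentile of log2 intensity subtracted. Probes (43382 of 55681) that the flags place well above background on the 2 arrays of any group were kept, named through RefSeq, and the brightest stood for its gene. All arrays entered 1 limma 3.58.1 fit (R 4.3.3) of 17 group means, with 17 residual degrees of freedom, eBayes and Benjamini-Hochberg adjustment over 19415 genes. Where no array of the dimmer side cleared the background flag, an at-least fold is given, set against whichever was larger on each array, the probe's value or the dimmest signal that cleared the flag. The code was tested on simulated data. Figures used Python 3.11.15 and matplotlib 3.10.9.

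The members and gene lists were chosen with earlier results of these data known. Members are described in every group, and of other pathway genes up to the 2 largest rises and falls of a comparison are named. Alternatives were quantile normalization, normexp, the authors' table, no filter, the mean of probes, the other probe (added after seeing the data), replicate block, slide, array weights, only the groups compared, leaving out iPSC2-CM D29 and leaving out single arrays. Replicate numbers did not pair the samples (r of deviations -0.09 to 0.17).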

Additional observations from a re-analysis of the deposited data

Results flagged for a closer look

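The effect of MGT against LacZ differed between day 10 and day 3 for 2 members by a test of the difference itself (limma interaction, adjusted over all genes). For Notch3 the difference was -1.99 (SE 0.20, adjusted p = 6.1e-06). For Jag1 it was -1.17 (SE 0.17, adjusted p = 3.0e-04). Both were called under each alternative run, single arrays left out included.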

How the results depend on the processing

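Of 85 called changes of single members, 60 were called under every alternative run for them. On day 3 of MGT against LacZ, 1 member (0 in the report) was called with normexp and quantile normalization, the authors' log2 values, array weights, only the groups compared, or without the iPSC2-CM D29 arrays. On day 14, 3 members (5 in the report) were called after quantile normalization. For iPSC2-CM D29 against iPSC2-CM D9, 0 (4 in the report) were called with array weights or only the groups compared. In these settings 490 and 0 of all 19415 genes were called. Leaving out 1 array gave 2 to 4 members on day 14 and 3 to 4 on day 5 (5 in the report for each day).

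Notch1 turned direction with the mean of its probes on day 5 of MGT against LacZ (-0.48), in iPSC-CM against neoCF (-1.20) and in neoCM against neoCF (-0.12). With the other probe alone it turned on day 5 (-2.24), on day 14 (-0.64), on the mean of days 3 to 10 (-1.37), in iPSC-CM against neoCF (-3.39) and in neoCM against neoCF (-1.27). Notch2 turned with its other probe in iCM against iPSC-CM (-1.29) and in iPSC1-CM D13 against iPSC2-CM D9 (-0.27). The other Notch1 probe was well above background on 11 of 34 arrays, 0 of them MGT arrays, so of these values only that of neoCM against neoCF was measured on both sides on every array. The cause was not tested.

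With the replicate block, Jag2 on day 5 was called (1.45, adjusted p = 0.049), and no other call of a member changed. Dll1 and Dll4 were well above background on 17 and 14 of 34 arrays, which limits their values, and 2 arrays a group limit all.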
